A study of Homo sapiens with 8 samples.

Results

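The integrated stress response is read here from 38 genes, chosen because they are *ATF4* itself, transcription factors that work with it, or genes it is known to induce. The rule goes by what the genes are known to do, the choice was made with earlier results of these data known, and all 38 were found among the 20030 rows of each library. Of these, 33 passed the filter on low values and were tested, as did 10677 genes in all. The other 5, *JDP2*, *NUPR1*, *VLDLR*, *CBS* and *ALDH1L2*, did not reach 1 FPKM in at least 2 libraries. *CHAC1* passed the filter only through the siHHEX libraries, so that its higher values there are a description. As chosen after seeing the data, the counts of genes higher in siHHEX are also given without it, or name it, where it is among them. *SLC1A4* reached 1 FPKM in no siNC library, so that its higher values in the knockdowns are a description too. FPKM is the number of fragments of a gene divided by the length of its transcript and scaled to the size of the library. This scaling alone does not make libraries fully comparable, and the results below also moved with GC content and with a common median.

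RNA was sequenced from HCT-116, a human colorectal cancer line, to find genes that depend on the homeodomain protein HHEX and on the YAP/TEAD complex. All 8 libraries came from cells transiently transfected with siRNA. The groups were 2 libraries with the control siRNA (siNC), 3 with siRNA against *HHEX* (siHHEX), 2 with siRNAs against both *YAP1* and *WWTR1*, the gene of TAZ (siYAP/TAZ), and 1 with siRNAs against all *TEAD* genes (siTEAD1/2/3/4). The methods list separate siRNAs numbered as the siHHEX and siYAP/TAZ libraries are, so that replicates within a knockdown also differed in siRNA. siHHEX 3 was deposited under a much later sample number than the other 7 libraries, and nothing states whether it was prepared and sequenced with them. Knockdown replicates with different siRNAs were separate transfections, but nothing states whether the siNC libraries came from separate cultures, so that p values measure only the spread between these libraries, which for siNC may be technical.

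The integrated stress response starts when kinases that sense amino acid shortage, unfolded protein in the endoplasmic reticulum, viral RNA or haem deficiency phosphorylate the translation factor eIF2. General translation then falls, while the *ATF4* mRNA is translated better through its upstream open reading frames. ATF4 pairs with C/EBP proteins on composite DNA elements and induces genes for amino acid uptake and synthesis, together with feedback inhibitors and, under lasting stress, pro-apoptotic factors. In colorectal cancer cells these genes are known for their part in the supply of amino acids to growing cells.

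The composite element that ATF4 and C/EBP proteins share has the core letters TGATGNAA, which were searched on both strands in promoters of RefSeq (build GRCh38.p14), from 250 bases before to 50 bases after each gene's start. Of the 38 genes, 30 were in that table, and 9 of these (30%) held the letters, against 1217 of 27305 genes in all (4.46%). Windows of 30 bases are shown for 5 of the 9, *ASNS*, *CHAC1* and *SLC3A2* because they recur in the results below, *CEBPG* as a partner of ATF4, and *SLC1A5* as a further carrier that differed between knockdowns. Each is written 5′ to 3′ in the gene's direction, with the matching letters in capitals, which read as the reverse complement where the match is on the other strand.
*ASNS* (chr7:97872458-97872487, minus strand, match 68 bases before the start): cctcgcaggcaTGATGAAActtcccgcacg
*CEBPG* (chr19:33374060-33374089, plus strand, match 42 bases before the start): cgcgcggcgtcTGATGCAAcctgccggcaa
*CHAC1* (chr15:40953251-40953280, plus strand, match 209 bases before the start, on the other strand): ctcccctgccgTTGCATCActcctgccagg
*SLC1A5* (chr19:46784893-46784922, minus strand, match 97 bases before the start): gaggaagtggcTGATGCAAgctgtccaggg
*SLC3A2* (chr11:62881719-62881748, plus strand, match from base 38 of the transcript, on the other strand): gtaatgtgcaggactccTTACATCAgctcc
*ATF3*, *JDP2*, *SLC1A4* and *SLC7A1* held the other matches. Starts are those of RefSeq, and each window shown lies inside its gene's span in the annotation used for gene coordinates below. A match describes the letters only and is not evidence of binding.

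The siRNA targets were read first. *HHEX* was at 8.60 and 9.06 FPKM in siNC, 3.25, 3.54 and 1.85 in siHHEX, 4.80 and 7.12 in siYAP/TAZ and 7.75 in siTEAD1/2/3/4. It was lower in all 3 siHHEX libraries than in any other library, and fell by 1.37 on the log2(FPKM + 1) scale from siNC (limma, adjusted p = 0.005403). *WWTR1* was at 2.64 and 2.58 FPKM in siYAP/TAZ against 6.80 and 6.72 in siNC (adjusted p = 0.01561). *YAP1* was at 6.90 and 8.39 FPKM in siYAP/TAZ against 20.2 and 19.7 in siNC, which did not pass the test (adjusted p = 0.06811). *YAP1* was also at 5.77, 17.4 and 6.93 FPKM in siHHEX 1, 2 and 3, so that 2 of the siHHEX libraries held as little of it as siYAP/TAZ did, and it fell from siNC to siHHEX by 1.07 (adjusted p = 0.04286; -0.76 after the correction for GC content described below, adjusted p = 0.1613). In siTEAD1/2/3/4, *TEAD4* was at 5.56 FPKM and *TEAD1* at 9.02, against 20.3 and 21.3 and against 18.3 and 19.0 in siNC. *TEAD2* was at 2.73 FPKM there, against 4.10 and 3.47 in siNC. *TEAD3* was at 9.08 FPKM in that library, above both siNC libraries at 7.36 and 6.99. *TEAD1* was also low in siHHEX 1, 2 and 3, at 6.985, 10.21 and 5.296 FPKM. Its siHHEX difference was -1.25 (limma, adjusted p = 0.006415), and -0.91 after the GC correction (adjusted p = 0.01889). *TEAD2* had 0.78 in siHHEX (adjusted p = 0.00709), and 0.47 after the correction (adjusted p = 0.07398). *TEAD4* had -0.63 in siYAP/TAZ (adjusted p = 0.02496), and -0.72 after the correction (adjusted p = 0.01103).

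The epithelial markers *KRT8*, *KRT18*, *KRT19* and *EPCAM* were high in every library, *KRT8* at 1591 and 1707 FPKM in siNC. The 8 epithelial markers summed to 2112 and 2037 FPKM in siYAP/TAZ and 2771 in siTEAD1/2/3/4, against 3173 to 3723 in siNC and siHHEX, and the part of this in the siYAP/TAZ results was not tested. Of these markers only *VIL1*, of the brush border, was near 0, with at most 0.0335 FPKM. Leukocyte, endothelial and fibroblast markers summed to at most 7.35, 0.0882 and 2.48 FPKM in any library, mostly *CD68* and *COL1A1*. In bulk RNA, fewer cells expressing a gene and less RNA of it per cell cannot be told apart. Depth relative to siNC 1, read from the spacing of the lowest values, was 0.923 to 1.09. The total of all genes was 331662.7 to 383422.6 FPKM.

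The siNC libraries were closer to each other than other replicates were. Over the 33 genes tested, their median absolute difference was 0.04 on the log2(FPKM + 1) scale, against 0.282 between the siYAP/TAZ libraries and 0.193 to 0.426 between pairs of siHHEX libraries. Over all tested genes these medians were 0.073 for siNC, 0.164 for siYAP/TAZ and 0.168 to 0.233 for siHHEX pairs. No gene of the 33 differed by over 0.5 between the siNC libraries, while 12 did between siHHEX 1 and siHHEX 2. siHHEX 1 had the highest value of its group for 25 of the 33 genes. These counts are a description, with no share over all tested genes beside them.

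In siHHEX, *ATF4*, the feedback inhibitor *TRIB3*, the serine synthesis genes *PHGDH* and *PSPH* and the proline synthesis gene *PYCR1* were among the genes that rose, while 7 of 8 amino acid transporters did not pass the test. Of the 33 genes, 12 (36.4%) rose from siNC to siHHEX, against 16% of all tested genes, and 1 (3.03%) fell, against 16.9%. A gene counts as changed here where limma gave a p under 0.05 after Benjamini-Hochberg adjustment over all tested genes. The median log2 difference was 0.29 over the 33 genes (0.28 without *CHAC1*) and -0.01 over all tested genes. As a ratio of mean FPKM, with no 1 added, the median over the 33 genes was 0.54. That ratio averages FPKM before the logarithm, so that a single high library weighs more, and was not taken over all tested genes. Within single libraries, the median over the 33 genes was 0.53 in siHHEX 1, 0.24 in siHHEX 2 and 0.16 in siHHEX 3. Over all tested genes it was -0.02, 0.02 and -0.01. In these libraries 29, 21 and 23 of the 33 were above both siNC libraries, *CHAC1* and *SLC1A4* among them each time. These counts are a description, with no share over all tested genes beside them. Groups did not overlap for 17 genes that were higher (33.1% of all tested genes did so), with *CHAC1* and *SLC1A4* left out, and for 4 that were lower (33.8%). The study's criterion, a change over 2-fold with an unadjusted p under 0.05, was taken here and below on the log2(FPKM + 1) scale. By it 4 genes rose (0.702% of all tested), *DDIT4*, *PCK2*, *GDF15* and *PHGDH*, and none fell (0.927%). *TRIB3* had 0.95 on this scale, and 1.01 with 0.1 added in place of 1. A log2 difference of FPKM + 1 understates the change of genes near 1 FPKM.

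**Figure D1:**
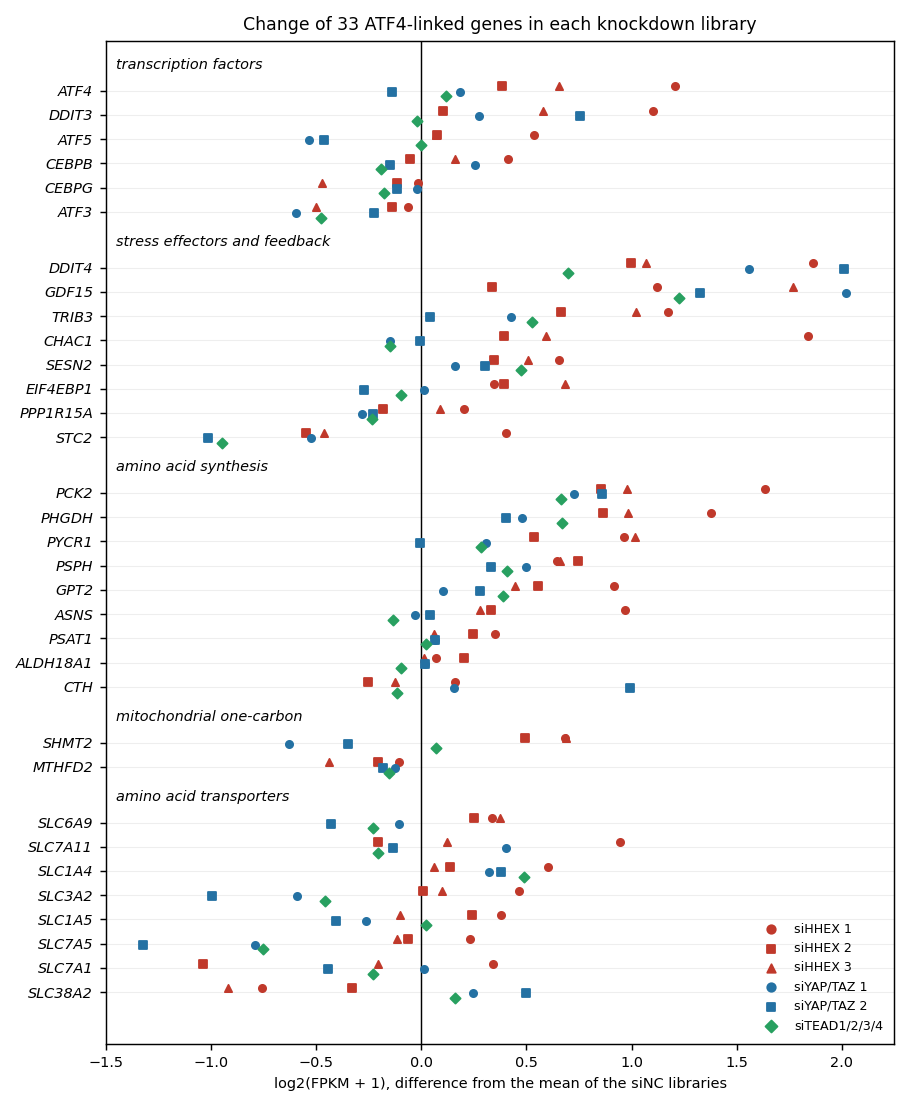
Difference of each knockdown library from the mean of the siNC libraries, on the log2(FPKM + 1) scale, for the 33 tested genes grouped by role, with 1 point for each library. The siHHEX points of *PCK2*, *PHGDH*, *PYCR1*, *TRIB3* and *DDIT4* all lie to the right of 0, and the siYAP/TAZ points of *SLC7A5* and *SLC3A2* to the left.

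These calls moved with the control libraries and with the base composition of transcripts. With siNC 1 left out, no gene of the 33 passed (12 were higher and 1 lower at an unadjusted p under 0.05, and *PHGDH* had the lowest adjusted p, 0.0803), and over all genes 10 rose and 9 fell. Without siNC 2, again none passed (12 were higher and 1 lower at an unadjusted p under 0.05), and over all genes 15 rose and 12 fell. In every siHHEX library the log2 difference rose with the GC content of the transcript, with Spearman's rho over tested genes of 0.679, 0.599 and 0.755 in siHHEX 1, 2 and 3, against 0.0604 and -0.0517 in siYAP/TAZ and 0.298 in siTEAD1/2/3/4. Genes are not independent replicates, and these values are descriptions, whose part in the siHHEX differences was not tested beyond the correction below. The 33 genes are GC-rich, with a median of 56.4% against 49.1% over tested genes, and the 12 that rose had a median of 58.5% against 50.5% for the other 21. Among the 2654 tested genes with the highest GC content (57.5% to 76.0%), 39.9% of all genes rose, and 8 of the 16 stress response genes there did. Among the 2654 with the lowest (30.7% to 42.0%), 0.754% rose, and none of 4 stress response genes did. Between these, 1 of 4 stress response genes rose against 3.54% of all genes (42.0% to 49.1% GC), and 3 of 9 against 20% (49.1% to 57.5% GC). With the trend on GC content and transcript length taken off each library, 4 of the 33 genes rose (12.1%, against 3.56% of all tested genes) and none fell, against 3.18% (1 was lower at an unadjusted p under 0.05). The correction turned the sign of 10 of the 33 siHHEX differences, 1 of them called before it, *EIF4EBP1*. With each library scaled to a common median, 13 rose (20.6% of all tested genes did) and 1 fell (13.7%), and the share of calls over all genes that were higher went from 48.7% to 60.1%.

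**Figure D2:**
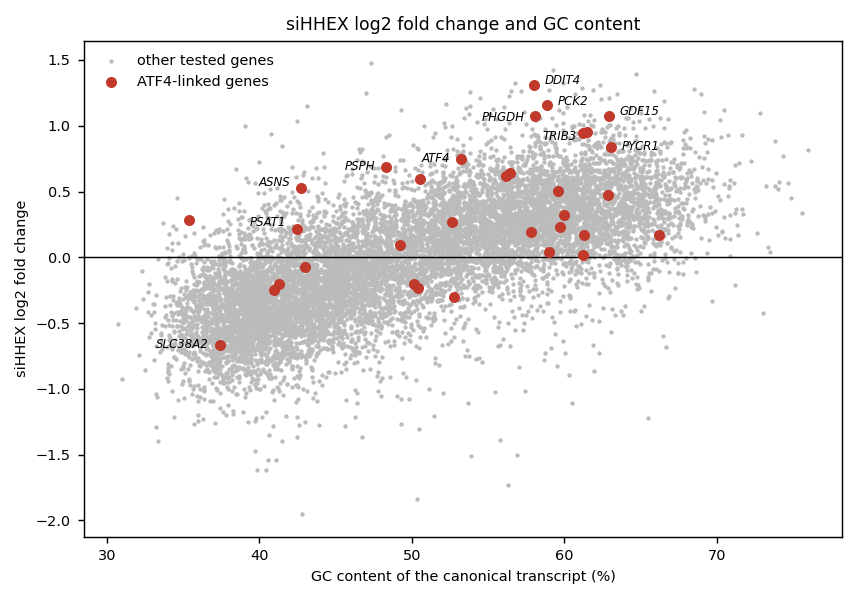
Log2 difference of siHHEX from siNC against the GC content (%) of the canonical transcript, with 1 point for each tested gene. Stress response genes are in red, and *DDIT4*, *PCK2* and *PHGDH* lie near the upper edge of genes of like GC content, as do *ASNS* and *PSPH* further to the left.

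Of the 6 transcription factors tested, 1 rose in siHHEX, *ATF4*, near the 16% of all tested genes, and none fell, against 16.9%. *ATF4* (chr22:39519695-39522683, plus strand) was at 51.2 and 53.3 FPKM in siNC, 122, 68.5 and 82.8 in siHHEX, 59.5 and 47.3 in siYAP/TAZ and 56.8 in siTEAD1/2/3/4. All 3 siHHEX libraries were above every other library, siHHEX 1 most, and the log2 difference from siNC was 0.75 ± 0.21 (SE, 3 against 2 libraries, adjusted p = 0.02791). Without siHHEX 1 it was 0.52 (adjusted p = 0.05002), and after the GC and length correction 0.49 (adjusted p = 0.1698). *DDIT3*, the pro-apoptotic factor CHOP, was at 3.44 and 3.53 FPKM in siNC, 8.63, 3.82 and 5.71 in siHHEX, 4.43 and 6.56 in siYAP/TAZ and 3.42 in siTEAD1/2/3/4. The knockdowns overlapped, and the siHHEX log2 difference of 0.59 (95% interval 0.01 to 1.18) did not pass (adjusted p = 0.1006). *ATF5*, which shares the translational control of *ATF4*, was at 16.6 and 16.3 FPKM in siNC, 24.3, 17.4 and 17.4 in siHHEX, 11.1 and 11.7 in siYAP/TAZ and 16.5 in siTEAD1/2/3/4. Only siHHEX 1 stood clearly above siNC, and both siYAP/TAZ libraries were below it. The differences of *CEBPB*, *CEBPG* and *ATF3* from siNC were 0.17, -0.20 and -0.23, and none passed. *JDP2* was at most 1.02 FPKM and *NUPR1* at most 0.223 in any library.

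Of the 8 stress effectors and feedback genes tested, 5 rose in siHHEX and none fell, against 16% and 16.9% of all tested genes. Their median log2 difference was 0.72 with *CHAC1*, and without it the middle value was that of *SESN2*, 0.50. *TRIB3*, a pseudokinase that inhibits ATF4, was at 11.7 FPKM in both siNC libraries, 27.7, 19.1 and 24.8 in siHHEX, 16.1 and 12.0 in siYAP/TAZ and 17.3 in siTEAD1/2/3/4. The 3 siHHEX libraries were the highest of the 8, with a log2 difference of 0.95 ± 0.17 (SE, adjusted p = 0.007888). *DDIT4*, an inhibitor of mTORC1, was at 12.5 and 12.7 FPKM in siNC, 48.5, 26.2 and 27.6 in siHHEX, 39.1 and 53.7 in siYAP/TAZ and 21.0 in siTEAD1/2/3/4. It was above siNC in all 6 knockdown libraries. On the log2(FPKM + 1) scale it had the largest siHHEX difference of the 33 genes, 1.31 ± 0.25 (SE, adjusted p = 0.008434). *GDF15*, a secreted stress hormone, was at 18.2 and 18.3 FPKM in siNC, 40.9, 23.3 and 64.5 in siHHEX, 76.9 and 47.2 in siYAP/TAZ and 43.99 in siTEAD1/2/3/4. It too was above siNC in all 6, with a siHHEX difference of 1.08 ± 0.35 (SE, adjusted p = 0.04309) that did not pass without siHHEX 1 (1.05, adjusted p = 0.1023) or without siHHEX 3 (0.73, adjusted p = 0.09111). *CHAC1*, which degrades glutathione, was at 0.700 and 0.999 FPKM in siNC, 5.59, 1.42 and 1.78 in siHHEX, 0.663 and 0.832 in siYAP/TAZ and 0.663 in siTEAD1/2/3/4. It was below 2 FPKM in every library but siHHEX 1, and its difference of 0.94 from siNC (95% interval 0.15 to 1.74) did not pass (adjusted p = 0.06604). It passed with 0.1 added in place of 1 and without siHHEX 2, a description only, since it entered through siHHEX alone. *SESN2*, the leucine sensor, rose by 0.50 (adjusted p = 0.02177), a call lost without siHHEX 1. *EIF4EBP1*, the translation repressor, rose by 0.47 (adjusted p = 0.02895), a call lost without siHHEX 3, and its difference was -0.09 after the correction. *PPP1R15A*, the eIF2 phosphatase subunit of the feedback loop, and *STC2* had differences of 0.04 and -0.20 and did not pass. *VLDLR* was at most 0.0195 FPKM. After the correction none of the 5 kept its call, with differences of 0.96 for *DDIT4* (adjusted p = 0.05435) and 0.59 for *TRIB3* (adjusted p = 0.05902).

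Of the 9 amino acid synthesis genes tested, 5 rose in siHHEX and none fell, against 16% and 16.9% of all tested genes. The 4 genes of the 33 that rose after the correction (3.56% of all tested genes did), *ASNS*, *PSAT1*, *PHGDH* and *PSPH*, were all of this role. In all, 8 of the 9 had a positive difference (5294 of 10677 tested genes did), with a median of 0.64 on the log2 scale. In siYAP/TAZ 9 of the 9 had a positive difference (6438 of 10677 tested genes), with a median of 0.19. In siTEAD1/2/3/4 6 of the 9 did (6285 of 10677 tested genes), with a median of 0.28. *PHGDH* (chr1:119648411-119744218, plus strand), the first enzyme of serine synthesis, was at 4.33 and 4.91 FPKM in siNC, 13.6, 9.22 and 10.1 in siHHEX, 6.83 and 6.42 in siYAP/TAZ and 7.94 in siTEAD1/2/3/4. Every knockdown library was above siNC and the 3 siHHEX libraries were highest. The log2 difference was 1.08 ± 0.16 (SE, adjusted p = 0.004829) and 0.73 after the correction (adjusted p = 0.03225). *PSPH*, the last enzyme of that pathway, was at 9.21 and 9.18 FPKM in siNC, 15.0, 16.1 and 15.1 in siHHEX, 13.4 and 11.8 in siYAP/TAZ and 12.5 in siTEAD1/2/3/4. Its siHHEX libraries lay close together, with differences of 0.68 before and 0.68 after the correction (adjusted p = 0.006687 and 0.01482). *PSAT1*, the enzyme between the others, was at 73.4 to 74.1 FPKM in siNC and 76.9 to 94.5 in siHHEX. Its difference of 0.22 did not pass (adjusted p = 0.1582), while 0.48 after the correction did (adjusted p = 0.03308). *ASNS* (chr7:97851677-97872542, minus strand), which makes asparagine, was at 30.9 and 28.9 FPKM in siNC, 59.4, 37.9 and 36.5 in siHHEX, 29.3 and 30.8 in siYAP/TAZ and 27.1 in siTEAD1/2/3/4. All siHHEX libraries were above the other 5, siHHEX 1 by far the most. The difference was 0.53 (adjusted p = 0.06155), 0.31 without siHHEX 1 (adjusted p = 0.09687), and 0.79 after the correction (adjusted p = 0.04945). Its transcript has a GC content of 42.7%.

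*PYCR1*, of proline synthesis, was at 89.0 and 94.0 FPKM in siNC, 179, 133 and 186 in siHHEX, 113 and 91.0 in siYAP/TAZ and 112 in siTEAD1/2/3/4. The siHHEX libraries were the highest of the 8, with a difference of 0.84 ± 0.16 (SE, adjusted p = 0.008529), and 0.45 after the correction (adjusted p = 0.07527). *PCK2*, the mitochondrial enzyme that makes phosphoenolpyruvate, was at 2.72 and 3.03 FPKM in siNC, 11.02, 5.998 and 6.62 in siHHEX, 5.40 and 6.03 in siYAP/TAZ and 5.13 in siTEAD1/2/3/4. It was higher in all 6 knockdown libraries than in siNC, with a siHHEX difference of 1.15 ± 0.21 (SE, adjusted p = 0.008124) and 0.82 after the correction (adjusted p = 0.05435). *GPT2*, the mitochondrial alanine transaminase, rose by 0.64 (adjusted p = 0.01718). *ALDH18A1*, also of proline synthesis, and *CTH*, of cysteine synthesis, had differences of 0.10 and -0.07. *CBS* was listed at 0 in every library but siTEAD1/2/3/4 and has a near-identical copy in the genome, so that its value is uncertain.

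In mitochondrial one-carbon metabolism, *SHMT2* and *MTHFD2* take consecutive steps from serine. *SHMT2* was at 63.0 and 66.8 FPKM in siNC, 105, 91.7 and 105 in siHHEX, 41.6 and 50.8 in siYAP/TAZ and 68.2 in siTEAD1/2/3/4. It was higher in siHHEX and lower in siYAP/TAZ than in siNC with no overlap, and its rise of 0.62 ± 0.12 in siHHEX passed (SE, adjusted p = 0.009728), but was 0.35 after the correction (adjusted p = 0.08255). *MTHFD2* was at 155 to 159 FPKM in siNC and 116 to 146 in siHHEX, a difference of -0.25 (adjusted p = 0.1208). *ALDH1L2* was at most 0.193 FPKM.

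None of the 8 amino acid transporters rose in siHHEX (limma, 1 was higher at an unadjusted p under 0.05), and 1, *SLC38A2*, fell, against 16% and 16.9% of all tested genes. *SLC38A2*, a carrier of small neutral amino acids, was at 114 FPKM in both siNC libraries, 67.2, 90.6 and 59.96 in siHHEX, 136 and 162 in siYAP/TAZ and 128 in siTEAD1/2/3/4. The siHHEX libraries were below all others and the other knockdowns above siNC. Its difference of -0.67 from siNC passed (adjusted p = 0.01824), was -0.62 without siHHEX 1 (adjusted p = 0.05578), and was -0.19 after the correction (adjusted p = 0.2830), at a GC content at the low end of the 33 genes. The differences of the other 7 were between -0.30 (*SLC7A1*) and 0.32 (*SLC6A9*), with 3 siHHEX libraries above siNC for *SLC6A9*. *SLC7A11*, the cystine carrier, was at 4.44 FPKM in siHHEX 1 but 1.45 and 2.07 in siHHEX 2 and 3, against 1.82 and 1.83 in siNC. Of the 12 genes that rose, 7 were in the promoter table and none held TGATGNAA, and *ASNS*, which rose after the correction, did.

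**Figure D3:**
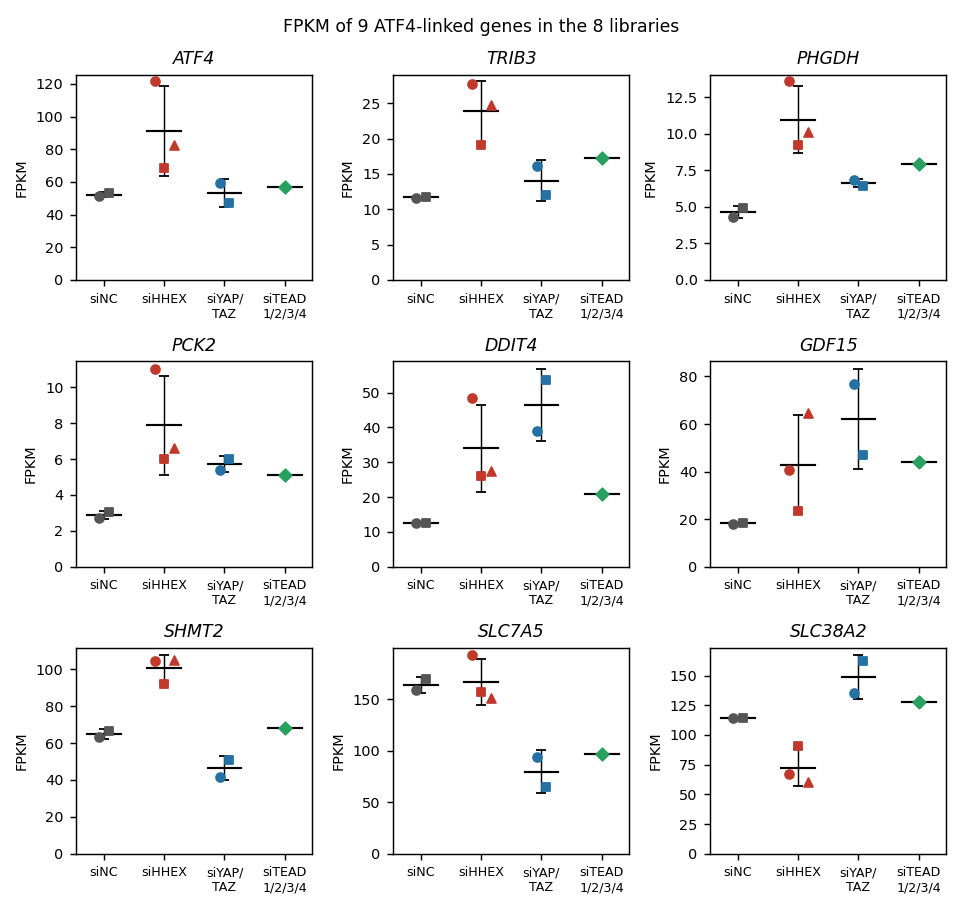
FPKM of 9 stress response genes in the 8 libraries, with points for libraries, bars at the group mean and whiskers of 1 SD (siTEAD1/2/3/4 has 1 library and no whisker). *DDIT4* and *GDF15* were above siNC in every knockdown library, while *SLC7A5* was lowest in siYAP/TAZ and siTEAD1/2/3/4.

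In siYAP/TAZ 2 of these genes rose, and the genes of both chains of 1 transporter fell. *DDIT4* rose by 1.78 ± 0.27 (SE, 2 against 2 libraries, adjusted p = 0.009964) and *GDF15* by 1.67 ± 0.39 (SE, adjusted p = 0.03389), which is 6.06% of the 33 genes against 6.15% of all tested genes. *SLC7A5* (chr16:87830023-87869507, minus strand) and *SLC3A2* encode the light and heavy chains of the large neutral amino acid transporter LAT1, and they fell, as did 2.13% of all tested genes. *SLC7A5* was at 158 and 169 FPKM in siNC, 193, 157 and 151 in siHHEX, 94.3 and 64.9 in siYAP/TAZ and 96.8 in siTEAD1/2/3/4. *SLC3A2* was at 151 and 156 FPKM in siNC, 212, 155 and 164 in siHHEX, 102 and 76.5 in siYAP/TAZ and 112 in siTEAD1/2/3/4. Both chains were lowest in siYAP/TAZ and next lowest in siTEAD1/2/3/4, while siHHEX overlapped siNC. The differences from siNC were -1.06 ± 0.18 for *SLC7A5* (SE, adjusted p = 0.01479) and -0.79 ± 0.18 for *SLC3A2* (SE, adjusted p = 0.03066), and -1.18 and -0.87 after the correction, where both passed. The median difference was 0.02 over the 33 genes and 0.08 over all tested genes, and *ATF4* had a difference of 0.02 (95% interval -0.50 to 0.55). By the study's criterion, 2 genes rose (1.14% of all tested genes) and *SLC7A5* fell (0.431%). After the GC and length correction 2 rose (5.31%) and 3 fell (6.14%). Groups did not overlap for 12 genes that were higher (42.9% of all tested genes did so), with *SLC1A4* left out, and 11 that were lower (24.8%). *SLC6A9*, which reached 1 FPKM in neither siYAP/TAZ library, was among these 11.

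*PCK2*, *PHGDH* and *PSPH* had siYAP/TAZ differences of 0.79, 0.44 and 0.41, with both libraries above siNC, and did not pass (adjusted p = 0.06625, 0.1484 and 0.07566). *SHMT2* had -0.49 (adjusted p = 0.05815), which passed after the correction (-0.56, adjusted p = 0.02300). *STC2*, *ATF5* and *ATF3* were lower in both libraries without passing, with differences of -0.77, -0.50 and -0.41. No gene of the 33 passed without siNC 1, without siNC 2 or without siYAP/TAZ 2 (3, 3 and 4 were higher and 3, 3 and 5 lower at an unadjusted p under 0.05). Over all tested genes 0.103%, 0.0749% and 0.478% rose in these fits and 0.103%, 0.0656% and 0.384% fell, and *GDF15* did not pass without siYAP/TAZ 1 (adjusted p = 0.1168) or without siHHEX 1, which enters through the shared spread (adjusted p = 0.05836). With each library scaled to a common median, *GDF15* did not pass (1.55, adjusted p = 0.05239), so that 1 gene rose (3.33% of all tested genes) and 3 fell (3.34%), and the share of calls over all genes that were higher went from 74.3% to 49.9%.

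The knockdowns of *HHEX* and of *YAP/TAZ* were compared directly, without siNC, since the comparisons above share the siNC libraries. Of the 33 genes, 13 (39.4%) were higher in siHHEX than in siYAP/TAZ, against 13.5% of all tested genes, and 2 (6.06%) were lower, against 25.9%. Without *CHAC1*, 12 of 32 were higher, *SLC6A9* among them. By the study's criterion 2 of these 32 were higher (0.234% of all tested genes) and 1 was lower (1.28%). The median difference was 0.29 over the 33 genes (0.28 without *CHAC1*) and -0.13 over all tested genes. On the log2(FPKM + 1) scale *SHMT2* had the largest difference, 1.11 (95% interval 0.83 to 1.39, adjusted p = 0.002820), followed by *SLC7A5* with 1.08 (0.70 to 1.45, adjusted p = 0.004369). All siHHEX values of these genes were above both siYAP/TAZ values. *CHAC1*, which entered only through siHHEX, had 1.02, 0.57 without siHHEX 1, and 1.59 with 0.1 added in place of 1. *SLC3A2* followed with 0.98 (0.62 to 1.35, adjusted p = 0.004820). *ATF4* differed by 0.73 (0.25 to 1.21, adjusted p = 0.02578), *ATF5* by 0.73 (0.37 to 1.08, adjusted p = 0.009394) and *TRIB3* by 0.72 (0.33 to 1.11, adjusted p = 0.01347). The other 6 genes higher in siHHEX were *PYCR1*, *PHGDH*, *EIF4EBP1*, *SLC6A9*, *SLC1A5* and *GPT2*, with differences between 0.45 and 0.69. *SLC6A9* is a description here, since no siYAP/TAZ library brought it past the filter, and it was at 0.581 to 1.76 FPKM in all libraries.

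*SLC38A2* was lower in siHHEX than in siYAP/TAZ, with a difference of -1.04 (95% interval -1.42 to -0.66, adjusted p = 0.004656), and *CTH* with -0.65 (adjusted p = 0.04895), where siYAP/TAZ 2 at 5.83 FPKM stood above the other 7 libraries at 1.88 to 2.84. *DDIT4* and *GDF15*, which rose in both knockdowns, had differences of -0.47 (-1.03 to 0.08) and -0.60 (-1.39 to 0.20), neither of which passed. *DDIT3* and *PCK2* had 0.08 (-0.50 to 0.66) and 0.36 (-0.12 to 0.84). After the GC and length correction 5 genes were higher (15.2%, against 5.53% of all tested genes), *SHMT2*, *SLC7A5*, *SLC3A2*, *ASNS* and *PSAT1*, and *SLC38A2* was lower (3.35% of all tested genes were) with -0.47 (adjusted p = 0.03225). Without siYAP/TAZ 2 only 3 genes were higher (3.82% of all tested genes were), and *CHAC1*, *CTH* and *GPT2* did not pass without siNC 1 or without siNC 2, which enter through the shared spread. With a common median for each library 18 were higher, 17 of 32 without *CHAC1* (23.5% of all tested genes), and 1 was lower (14.2%), where the median over all tested genes moved from -0.13 to 0.03 and the share of calls that were higher from 34.2% to 62.3%.

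**Figure D4:**
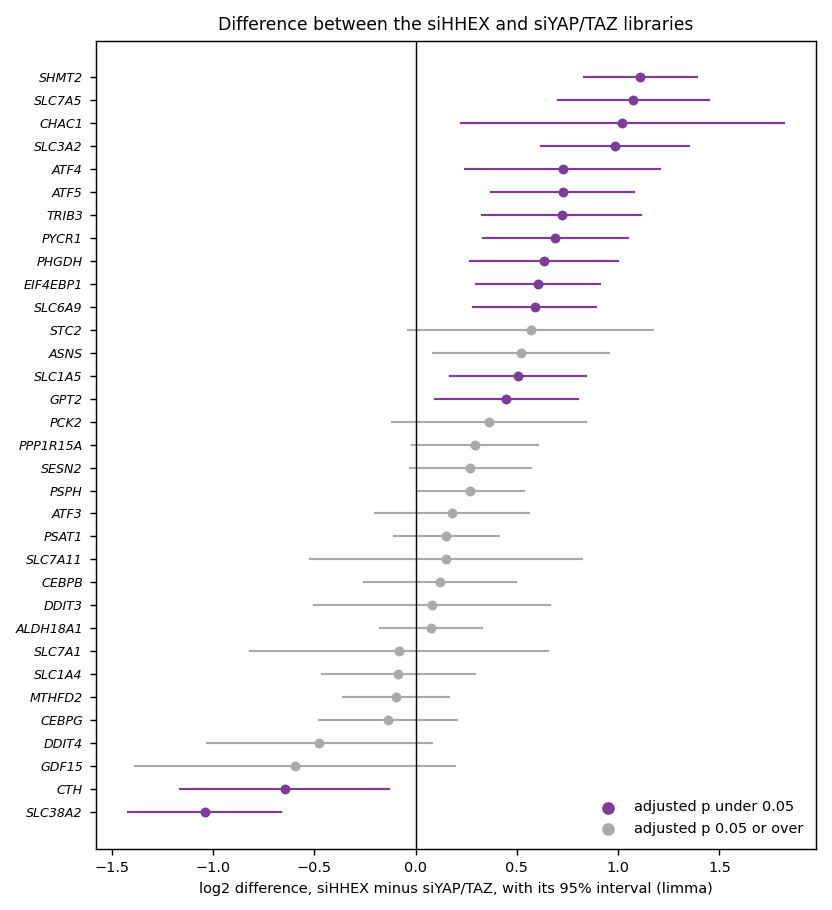
Difference of siHHEX from siYAP/TAZ for the 33 genes on the log2(FPKM + 1) scale, with 95% intervals from limma. Purple marks the 15 genes with an adjusted p under 0.05, 13 to the right of 0 (*CHAC1* among them, which passed the filter only through siHHEX) and *CTH* and *SLC38A2* to the left. *SLC6A9*, also to the right, reached 1 FPKM in neither siYAP/TAZ library.

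**Figure D5:**
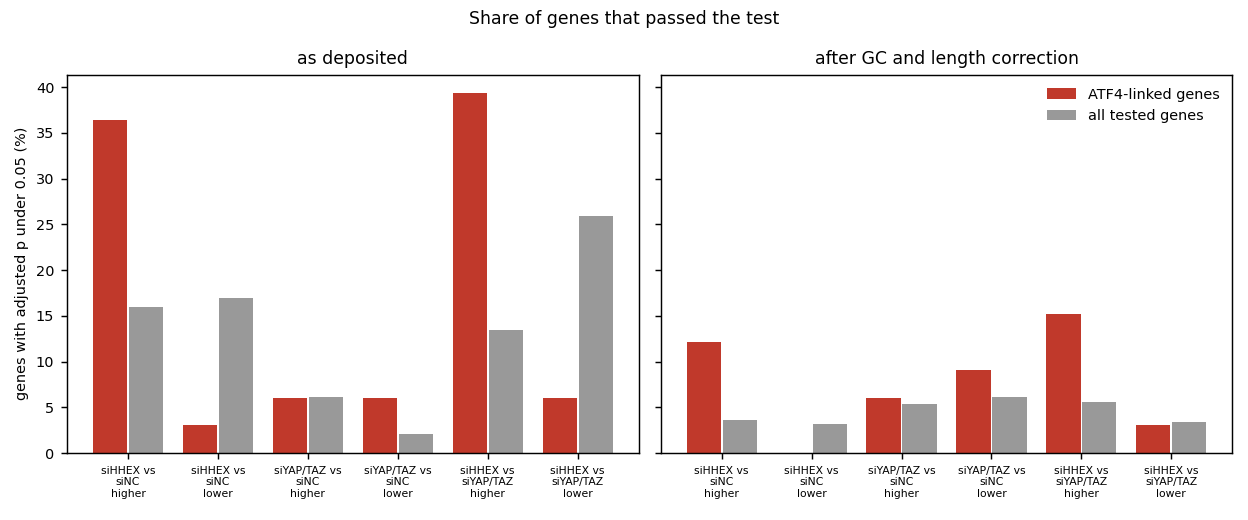
Percent of the 33 stress response genes (red) and of all tested genes (grey) with an adjusted p under 0.05, in each comparison and direction, before and after the GC and length correction. Before it 36.4% against 16% rose in siHHEX, and after it 12.1% against 3.56%.

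The siTEAD1/2/3/4 library has no replicate, so that its differences from siNC carry no test. On the log2(FPKM + 1) scale *GDF15* was the only gene of the 33 over 2-fold higher, with 1.23, as were 0.412% of all tested genes. None was over 2-fold lower on that scale (0.478%). *DDIT4*, *PHGDH*, *PCK2* and *TRIB3* had 0.70, 0.67, 0.66 and 0.53. *STC2*, a secreted glycoprotein, was at 5.90 FPKM against 12.5 and 12.2 in siNC, a difference of -0.95, and 2 of the siHHEX and both siYAP/TAZ libraries were also below siNC, at 5.60 to 8.69. *SLC7A5* and *SLC3A2* had -0.75 and -0.46, in the direction of siYAP/TAZ. The median was -0.02 over the 33 genes and 0.06 over all tested genes.

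The steps before *ATF4* were read from 17 genes for the eIF2 kinases, eIF2, eIF2B and their regulators, all tested. In siHHEX none rose, against 16% of all tested genes, and 6 fell, against 16.9% (limma, 0 were higher and 7 lower at an unadjusted p under 0.05), with a median log2 difference of -0.24. *EIF2S1*, the eIF2 subunit that is phosphorylated, was at 62.2 and 61.4 FPKM in siNC and 40.0, 32.1 and 35.3 in siHHEX, and fell by 0.78 (adjusted p = 0.005327). *PPP1R15B*, the constitutive eIF2 phosphatase subunit, fell by 0.65 (adjusted p = 0.009256), *EIF2S2* by 0.64 (adjusted p = 0.01383) and *EIF2AK3*, the kinase PERK, by 0.41 (adjusted p = 0.03953). After the GC and length correction none of the 17 passed in either direction (2 were higher and 2 lower at an unadjusted p under 0.05), where 3.56% of all tested genes rose and 3.18% fell. In siYAP/TAZ none passed before it (3 higher and 1 lower at an unadjusted p under 0.05), against 6.15% of all tested genes higher and 2.13% lower, and after it *EIF2S2* was lower, with -0.47 (adjusted p = 0.04650), as were 6.14% of all tested genes. Between siHHEX and siYAP/TAZ 2 of the 17 were higher (13.5% of all tested genes were), *EIF2B2* and *EIF2B5*, and 7 were lower (25.9%). After the correction these 2 were higher (5.53%), with 0.94 (adjusted p = 0.0179) and 0.39 (adjusted p = 0.04512), and 0 were lower (3.35%).

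Of 13 genes for cytosolic tRNA synthetases and the tRNA exporter *XPOT*, known as ATF4 targets, 2 rose and 2 fell in siHHEX, near the 16% and 16.9% of all tested genes, and none passed in siYAP/TAZ (limma, 2 were higher at an unadjusted p under 0.05), where 6.15% of all tested genes rose and 2.13% fell. *AARS*, which charges alanine tRNA, was at 29.7 and 30.5 FPKM in siNC, 60.7, 43.7 and 50.5 in siHHEX, 43.1 in both siYAP/TAZ libraries and 37.1 in siTEAD1/2/3/4. All 6 knockdown libraries were above siNC, and the siHHEX rise of 0.75 (adjusted p = 0.008529) passed after the correction too (0.63, adjusted p = 0.03448). *CARS*, for cysteine, rose by 0.61 (adjusted p = 0.01752), while *XPOT* fell by 0.65 (adjusted p = 0.01409) and *TARS*, for threonine, by 0.48 (adjusted p = 0.01722). After the correction, which covered 10 of the 13, these did not pass, with 0.48 for *CARS* (adjusted p = 0.07944), -0.23 for *XPOT* (adjusted p = 0.1756) and -0.20 for *TARS* (adjusted p = 0.1856). Between siHHEX and siYAP/TAZ 1 of the 13 was higher, *YARS* (13.5% of all tested genes were), and 5 were lower (25.9%), and after the correction none of the 10 passed (1 was higher at an unadjusted p under 0.05).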

How the data were processed

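Libraries were assigned to groups from their labels. Total RNA was isolated with Trizol and sequenced on a HiSeq instrument by the authors, who deposited FPKM, a single value for each gene in each library. The submitters' processing notes name Trimmomatic 0.36, HISAT2 2.0.5, Cufflinks 2.2.1 and HTSeq 0.9.1. The roles of these tools, the build and the annotation for these values are not given in the sources used here. The methods name DESeq as what the authors used for differential expression. Counts were not used, so that the absolute depth is unknown and the precision it gives is not stated. Of the rows, 27 were named by a date and stayed as they were.

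Genes that reached 1 FPKM in 2 or more libraries went into limma 3.58.1 (R 4.3.3) on log2(FPKM + 1), with a variance trend, in 1 fit of 8 libraries and 4 groups, with Benjamini-Hochberg adjustment. GC content and length were taken from GENCODE 44 canonical transcripts on GRCh38 (10614 genes, 99.4%). Natural splines (4 degrees of freedom) on both were fitted to each library's difference from the mean over libraries, and the fitted part was taken off. Coordinates of genes are from the same annotation, while those of promoter windows and their starts are from RefSeq. The scripts were tested on simulated data, and also used Python 3.11.15, numpy 2.4.6, pandas 2.3.3, scipy 1.17.1 and matplotlib 3.10.9.

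The members and lists were chosen with earlier results of these data known. Every-library values are given for *ATF4*, *DDIT3*, *TRIB3*, *ASNS* and *CHAC1*, for the called members, at most the 8 with the largest change in each comparison, and for members over 2-fold in siTEAD1/2/3/4. In the pathway lists, at most 4 called genes are named per list and comparison. Other genes were named after their values were seen. The alternatives tried were 0.1 as the pseudocount, a filter on the mean or none, fitting only the groups compared, a block for the replicate number, each library left out, a common median, the correction with and without the block, the ratio of mean FPKM, no variance trend and each siNC library alone.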

Additional observations from a re-analysis of the deposited data

How the results depend on the processing

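The siHHEX count of 12 higher and 1 lower was 2 and 0 with no filter on low values (2.87% and 2.06% of all tested genes), 4 and 0 after the GC and length correction (3.56% and 3.18%), and 0 and 0 after this correction with the replicate block (0.612% and 0.952%), where 12 genes were higher and none lower at an unadjusted p under 0.05 (limma). Leaving out 1 library gave 0 to 15 higher and 0 to 1 lower. The 15 came without siHHEX 2, with *CHAC1* among them. The median difference of 0.29 was 0.54 as a ratio of mean FPKM, which was not taken over all tested genes. The siYAP/TAZ count of 2 higher and 2 lower was 0 and 0 with no filter (4 and 4 at an unadjusted p under 0.05, and 0.709% and 0.33% of all genes called), 5 and 5 with only the groups compared (11.4% and 5.05%), 1 higher with a common median (3.33%), 4 lower with the correction and the block (4.6%), and 0 to 3 in either direction with 1 library left out. Its median of 0.02 was -0.0945 with a common median and -0.0515 after the correction, with or without the block. The siHHEX against siYAP/TAZ count of 13 higher was 4 with no filter (4.05%), 5 after the correction (5.53%), 3 after the correction with the block (0.923%) and 3 to 16 with 1 library left out. The count of 2 lower was 1 with a pseudocount of 0.1, no filter, only the groups compared, a common median, and the correction with or without the block (with the block this was *GDF15*, not *CTH* or *SLC38A2*), and 1 to 2 with 1 library left out. The 16 higher in siHHEX than in siYAP/TAZ also came without siHHEX 2, with *CHAC1* among them. In siTEAD1/2/3/4, 1 gene was over 2-fold lower with a pseudocount of 0.1, a common median or the correction, and the median of -0.02 was -0.0755 with a common median and -0.0863 after the correction. The causes were not tested.

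Same-numbered libraries did not deviate together (correlations of -0.0704 to 0.0215), so that the numbers pair nothing here. With the replicate block alone 11 rose and 1 fell in siHHEX (9.58% and 9.73% of all tested genes did), 2 and 2 in siYAP/TAZ (7.3% and 2.36%), and 15 were higher and 2 lower in siHHEX than in siYAP/TAZ (9.49% and 18.0%). *CHAC1*, which entered only through siHHEX, was among these 15. For the called genes with the largest change in each comparison, with *ATF4*, *DDIT3*, *TRIB3*, *ASNS* and *CHAC1* in siHHEX (23 differences in all), none of 368 alternative values changed sign. Their calls were lost in 39 and gained in 4 of these, apart from leaving out a library, which lost 40 and gained 4. Among all 33 genes the correction turned the sign of 10 differences in siHHEX, 6 in siYAP/TAZ and 4 between them, of which *EIF4EBP1* in siHHEX had been called. With 1 siNC library left out, the lone one is assumed to vary like the other groups. The siRNA and the library cannot be told apart within the siHHEX group.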

Other observations

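Among 14 genes induced by p53, 5 rose in siYAP/TAZ and none fell (limma, adjusted p under 0.05), and 3 rose and 4 fell in siHHEX. Of all tested genes, 6.15% rose and 2.13% fell in siYAP/TAZ, and 16% and 16.9% in siHHEX. After the GC and length correction 5 rose and 1 fell in siYAP/TAZ (5.31% and 6.14% of all tested genes) and none passed in siHHEX (3 were higher and 4 lower at an unadjusted p under 0.05). *TP53I3*, a p53-induced oxidoreductase, was at 2.17 and 2.30 FPKM in siNC, 4.41, 3.81 and 6.94 in siHHEX, 8.16 and 10.7 in siYAP/TAZ and 4.37 in siTEAD1/2/3/4. Its differences on the log2(FPKM + 1) scale were 0.87 in siHHEX (adjusted p = 0.01619) and 1.68 in siYAP/TAZ (adjusted p = 0.007657), and 0.48 (adjusted p = 0.1175) and 1.59 (adjusted p = 0.004053) after the correction. *TP53INP1* was at 2.55 and 2.39 FPKM in siNC, 1.10, 1.69 and 1.33 in siHHEX and 6.86 and 9.54 in siYAP/TAZ. It was below siNC in every siHHEX library and above it in both siYAP/TAZ libraries, and the direct difference of siHHEX from siYAP/TAZ was -1.95 (adjusted p = 0.002367), and -1.38 after the GC and length correction (adjusted p = 0.005794). *BBC3*, the pro-apoptotic protein PUMA, rose in siHHEX by 0.89 and in siYAP/TAZ by 1.25, with 0.45 (adjusted p = 0.1306) and 1.13 (adjusted p = 0.01138) after the correction.

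Of 10 NRF2 targets, 3 rose in siYAP/TAZ, *PIR*, *ME1* and *NQO1*, with differences of 1.32, 0.81 and 0.66, and 1 rose and 2 fell in siHHEX, where 16% and 16.9% of all tested genes did (6.15% rose in siYAP/TAZ). After the correction *NQO1* did not pass in siYAP/TAZ (0.59, adjusted p = 0.06411), and 2 rose and 1 fell in siHHEX (3.56% and 3.18% of all tested genes). *TXNRD1*, thioredoxin reductase, was at 149 and 147 FPKM in siNC, 79.4, 56.5 and 72.6 in siHHEX, 111 and 87.1 in siYAP/TAZ and 83.0 in siTEAD1/2/3/4, below siNC in every knockdown library. Of 15 genes of the endoplasmic reticulum arms, 2 rose (*XBP1* and *CRELD2*) and 3 fell in siHHEX, near the 16% and 16.9% of all tested genes, and none passed in siYAP/TAZ (1 was lower at an unadjusted p under 0.05). After the correction none of the 15 passed in siHHEX (3 were higher and 2 lower at an unadjusted p under 0.05), and *DNAJB11* was lower in siYAP/TAZ (3.56% and 3.18% of all tested genes passed in siHHEX, and 6.14% were lower in siYAP/TAZ). Only 6 of 12 interferon response genes reached the filter. *IFIH1* did so only through siYAP/TAZ and siTEAD1/2/3/4, with a siYAP/TAZ difference of 0.58 that is given as a description, and none of the 6 passed in siHHEX (1 was lower at an unadjusted p under 0.05).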
